A study of Mus musculus with 52 samples.

Results

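The clustered protocadherin promoters comprised 36 of the 20633 promoter intervals measured in this series: 2 of the alpha cluster, 16 of the beta cluster and 18 of the gamma cluster. They were taken by gene name, as the intervals on chromosome 18 whose RefSeq identifier belonged to a Pcdha, Pcdhb or Pcdhg gene. RefSeq lists 58 genes of the family in the mouse. The intervals held both alpha C-type genes (Pcdhac1 and Pcdhac2), 16 of 22 beta genes, 12 of 12 gamma A genes, 3 of 7 gamma B genes and 3 of 3 gamma C-type genes, and the other family members were not analysed here.

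Accessibility of the chromatin was read out by cATAC-seq, a calibrated form of ATAC-seq in which the Tn5 transposase cuts open DNA and Drosophila SG4 cells added to the mouse embryonic stem cells (mESCs) provide a reference for scaling between libraries. All 4 conditional lines carry CreERT2, which 4-hydroxytamoxifen activates, and each was compared untreated and after tamoxifen (800 nM for 96 h). In Kdm2a/b-JmjC fl/fl cells, which came from mice with ROSA26-CreERT2, recombination removes exons of the JmjC demethylase domain from Kdm2a and Kdm2b, and shorter forms of both proteins that start downstream are retained. In the CXXC lines, tamoxifen instead deletes the part of the gene for the ZF-CxxC domain, through which KDM2 proteins bind unmethylated CpG dinucleotides: from both genes in Kdm2a/b-CXXC fl/fl, from Kdm2b in Kdm2b-CXXC fl/fl, and from Kdm2a in Kdm2a-CXXC fl/fl cells. Kdm2a/b-CXXC and Kdm2a-CXXC were each made as an edited clone, so each stands for 1 clone. There were 3 untreated and 3 tamoxifen libraries per line, and 4 of each in Kdm2a/b-CXXC, 26 in all. The promoters of Kdm2a and Kdm2b lie outside the deleted exons, so accessibility at them does not check the deletions.

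Clustered protocadherins are cell adhesion proteins of the cadherin superfamily that neurons use to tell their own processes from those of other neurons. In each cluster, a series of variable exons, each with its own promoter, is followed by constant exons in the alpha and gamma clusters, whereas each beta gene is a single coding exon. In neurons, single cells choose a few of the variable promoters, while the C-type promoters are used more uniformly. The choice involves DNA methylation of the promoters, the insulator protein CTCF, cohesin and a short conserved sequence element with the core CGCT that most of the promoters carry.

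Values were reads per 400 bp promoter interval divided by the spike-in size factor of the library, called calibrated reads below. All intervals had the same length, so levels are set side by side per 400 bp. The transposase also has sequence preferences, the intervals ranged from 33.0% to 72.0% GC, and the genomic DNA libraries were not analysed here, so the part of sequence preference in levels compared between promoters was not tested. In bulk libraries, fewer cells with an open promoter and a less open promoter in every cell cannot be told apart. Libraries held 1.49 to 3.03 M promoter reads, of which 1208 to 2220 fell in the protocadherin promoters, a share of 674 to 982 reads per M (1000000) promoter reads. Recovered reads per promoter and library ranged from 4 to 66 in the beta cluster, from 34 to 120 in the alpha cluster and from 4 to 215 in the gamma cluster. Some libraries stood apart from the rest of their line across all promoters: relative to the untreated mean, the median promoter was 0.41 and 0.53 higher (log2) in untreated and tamoxifen replicate 1 of Kdm2b-CXXC, 0.34 lower in untreated replicate 2 of that line, 0.43 higher in tamoxifen replicate 1 of Kdm2a/b-CXXC and 0.37 lower in tamoxifen replicate 1 of Kdm2a-CXXC. The intervals are given in mm10, and all lie on the plus strand of chromosome 18 between 37089936 and 37819745, a span of 730 kb.

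The cell type given by the labels was checked at marker promoters. All 6 pluripotency genes examined (Pou5f1, Sox2, Nanog, Klf4, Esrrb and Zfp42) had reads in every library. The median percentile of their promoter intervals among all promoters was 43.9 to 68.4 in the untreated cells of the 4 lines. The medians were 39.3 to 45.9 for 4 neuronal genes (Rbfox3, Snap25, Syt1 and Tubb3), 33.7 to 37.4 for 4 fibroblast genes and 41.3 to 48.6 for 4 endoderm genes. In Kdm2a/b-JmjC the pluripotency median (43.9) lay below the endoderm median (48.6) and near the neuronal one (43.1). In each of the other lines it was the highest of these lists. None of these promoters was at 0 in any library, so accessibility at promoters did not separate the cell types by presence and absence.

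The 3 clusters differed in their untreated level, with the beta promoters lowest. Over the 4 lines, each weighted equally, mean calibrated reads of the 2 alpha C-type promoters were 66.2 and 69.0, those of the gamma promoters had a median of 58.6, and those of the beta promoters a median of 22.7. The median over all promoters was 62.3 to 92.7 in the 4 lines. Beta promoters therefore lay between the 13.8th and 39.4th percentile of all promoters, and the alpha C-type promoters between the 44.4th and 49.7th. Of the 15 gamma A and gamma B promoters, 14 fell in a narrow range of 45.3 to 77.6 calibrated reads (percentiles 35.6 to 52.4), and Pcdhga12 was the exception with 13.8.

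**Figure D1:**
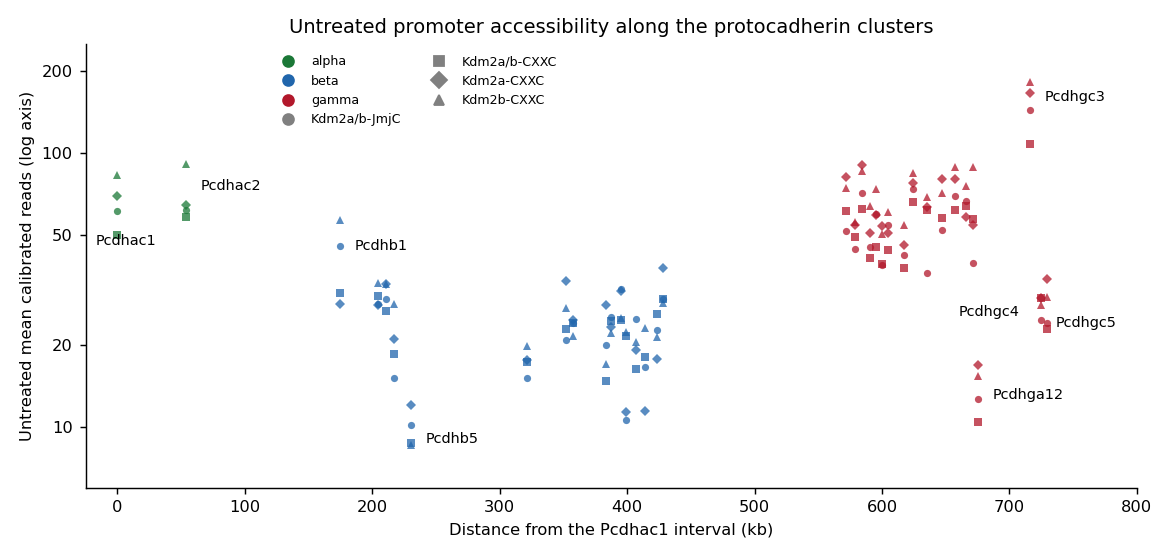
Mean calibrated reads of untreated cells (log axis) at each protocadherin promoter against its distance in kb from the Pcdhac1 interval; colours mark the alpha, beta and gamma clusters and each symbol is the mean of one line (3 libraries, 4 in Kdm2a/b-CXXC). The beta promoters lie below most gamma promoters, Pcdhgc3 is highest in every line, and Pcdhga12 is the low gamma A promoter.

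Pcdhgc3, the first of the gamma C-type genes (37806210 to 37806609), had the highest level in every line. In untreated cells it had 108 ± 7.34 calibrated reads in Kdm2a/b-CXXC (SD, n = 4) and 144 ± 11.5 in Kdm2a/b-JmjC (SD, n = 3). The untreated means of Kdm2a-CXXC and Kdm2b-CXXC were 165 ± 10.5 and 182 ± 48.8 (SD, n = 3 each). These values placed it between the 71.6th and 76.7th percentile of all promoters. Its neighbours Pcdhgc4 (37814879 to 37815278) and Pcdhgc5 (37819346 to 37819745), the other C-type genes of the cluster, had far lower means of 27.9 calibrated reads each, within the range of the beta promoters.

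At the other end, Pcdhb5 (37320181 to 37320580) had the lowest level, with line means of 8.57 to 12 calibrated reads in untreated cells. Pcdhga12 (37765380 to 37765779) came next, with 10.4 to 16.8. Pcdhb1 (37264798 to 37265197), which lies apart from the other beta genes at the start of that cluster, was the highest beta promoter with a mean of 40.4, against 9.88 to 31.3 for the remaining 15. Its level varied between lines, from 28.1 ± 0.34 in untreated Kdm2a-CXXC to 57.0 ± 16.9 in untreated Kdm2b-CXXC (SD, n = 3 each), but levels were calibrated separately in each line.

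The order of the 36 promoters was similar in the 4 lines, with a Spearman rank correlation of 0.90 to 0.94 over the 6 pairs of lines (n = 36 promoters). Over all promoters it was 0.97 to 0.99. Neighbours in this order were mostly not separable: of 35 neighbouring pairs, the untreated libraries overlapped in every line for 26, and were apart in all 4 lines for 1 pair, Pcdhgc3 and the second-ranked Pcdhga3. The median coefficient of variation between untreated replicates was 28.6% for beta, 19.9% for gamma and 20.5% for alpha promoters, where counting error alone gives 19.9%, 13.0% and 12.5%.

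The sequence of the intervals, read from the GRCm38.p6 reference (the same build as mm10), differed between the clusters in its medians, with overlapping ranges. All promoters of the series had a median GC content of 60.2% and 24 CpG dinucleotides in the 400 bp, and 54.6% were CpG-rich (at least 50% GC, with CpGs at 0.6 or more of the number that the C and G content predicts). The beta promoters had a median GC content of 42.5% and 3 to 15 CpGs, and 0 of 16 were CpG-rich. The gamma promoters had a median GC content of 52.1% (33.0% to 62.2%) and 1 to 31 CpGs, a range that covers that of the beta promoters, and 6 of 18 were CpG-rich (Pcdhga4, Pcdhgb2, Pcdhga5, Pcdhga10, Pcdhgb8 and Pcdhgc3). Both alpha C-type promoters were CpG-rich, with 25 and 34 CpGs.

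Pcdhgc3, the most accessible member, had 31 CpGs and a GC content of 62.2%. Pcdhga12, the least accessible gamma promoter, had 1 CpG and a GC content of 33.0%. Across the 36 promoters the log2 level and the CpG count had a Pearson r of 0.74 and a Spearman rho of 0.74, and r was 0.69 without Pcdhgc3. Within the 16 beta promoters r was 0.30 and rho 0.42, and within the 18 gamma promoters r was 0.68 and rho 0.33. The points share the same libraries, and no test was made, since promoters of a cluster are not independent.

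**Figure D2:**
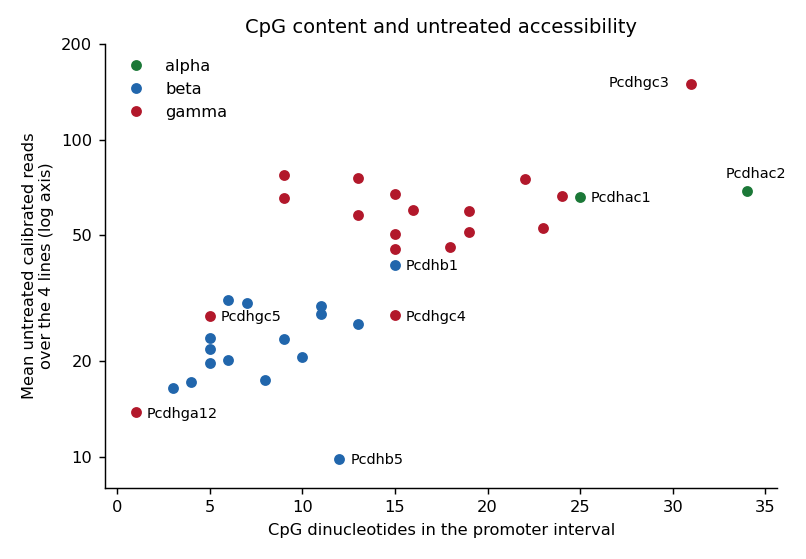
Mean untreated calibrated reads over the 4 lines (log axis) against the number of CpG dinucleotides in the 400 bp interval, 1 point per promoter, coloured by cluster. Beta promoters sit at 3 to 15 CpGs, most gamma A and gamma B promoters at 45.3 to 77.6 calibrated reads, and Pcdhgc3 and Pcdhac2 at the CpG-rich end with different levels.

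The letters CGCT, searched on both strands, were present in 35 of the 36 intervals and in 82.6% of all promoters of the series, so most promoters hold so short a motif. Pcdhgc3 held 11 copies and Pcdhga5 held 9, and Pcdhga12 held none. AGNNGGC, the core of the CTCF motif, was present in 19 of 36 (52.8%), against 77.5% of all promoters, and TATAAA in 5 of 36 (13.9%), against 10.4%. Although the variable exons resemble each other, each of the 321 windows of 80 bases (the read length) in every member interval occurred only once on the assembled chromosomes, whereas 192 of 20630 promoters had at least 1 repeated window.

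The intervals did not sit at the same place relative to the coding sequence. For 10 members (Pcdhac1, Pcdhac2, Pcdhb1, Pcdhga1, Pcdhga2, Pcdhgb1, Pcdhga4, Pcdhga5, Pcdhga6 and Pcdhga10) the interval was centred exactly on the start codon. For 24 others the start codon lay 54 to 221 bp downstream of the centre. The 2 remaining members were Pcdhga12, with its start codon 537 bp downstream, and Pcdhgc4, with 454 bp, so that neither interval reached the start codon. The Pcdhb16 interval, with its start codon 221 bp downstream, also ended just before it. The 400 bp directly before the Pcdhga12 start codon, most of which the interval leaves out, held 10 CpGs and 2 copies of CGCT at a GC content of 50%. The corresponding 400 bp of Pcdhgc4 held 25 CpGs, against 15 in its interval. For the other gamma A and gamma B promoters, the median level was 52.8 calibrated reads in the 7 intervals centred on the start codon and 65.6 in the 7 that lay upstream, with ranges of 45.3 to 75.4 and 45.9 to 77.6. The part that the interval position plays in the low values of Pcdhga12 and Pcdhgc4 was not tested.

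Each line was then compared with and without tamoxifen, which asks whether loss of the long KDM2 forms or of their CpG-binding domain alters accessibility at these promoters. No protocadherin promoter passed the thresholds in any line (limma, a fold change over 1.4 with an adjusted p under 0.05). The smallest adjusted p was 0.0870. Of all promoters tested, 13 of 17174 were called in Kdm2a/b-JmjC (0.0757%), and 0% in the others: 0 of 17930 in Kdm2b-CXXC, 0 of 17727 in Kdm2a-CXXC and 0 of 16413 in Kdm2a/b-CXXC. In these lines 120, 1488 and 764 promoters had an unadjusted p under 0.05, and edgeR and DESeq2 called 0. All 36 members were tested except Pcdhb5 in Kdm2a/b-CXXC, which did not pass the filter on low reads. On the recovered reads, edgeR and DESeq2 likewise called 0 members in each line.

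**Figure D3:**
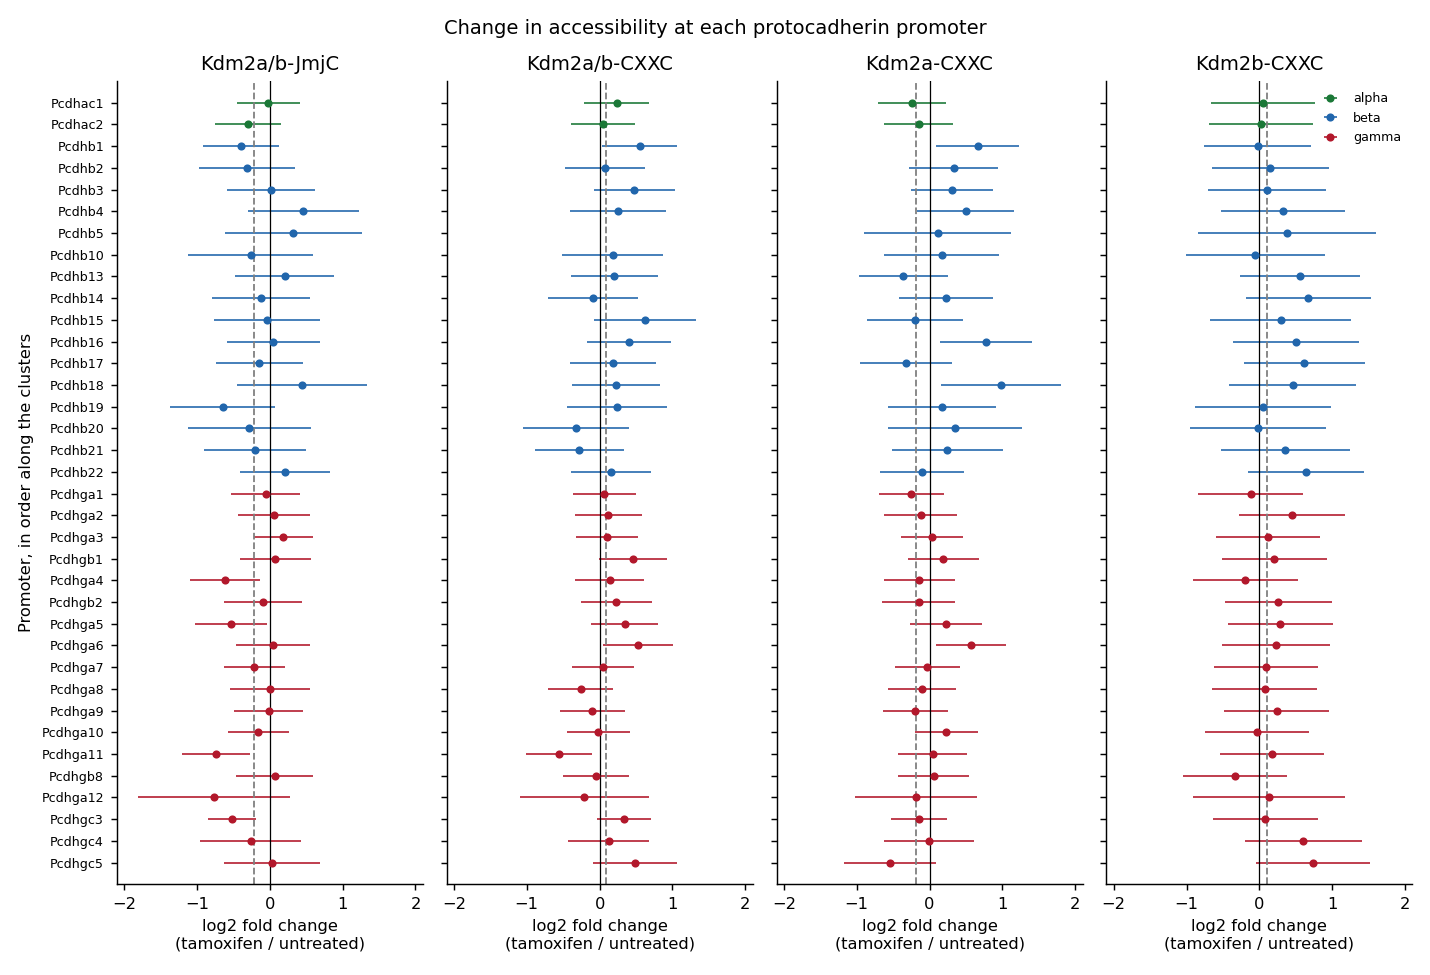
Log2 fold change (tamoxifen over untreated) with its 95% confidence interval at each protocadherin promoter, in order along the clusters, with 1 panel per line; the dashed line is the median over all promoters tested. No member passed the thresholds. Most intervals cross 0, and the median SE is largest in Kdm2b-CXXC (0.39).

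In Kdm2a/b-JmjC, the members' median log2 fold change was -0.076, against -0.21 over all promoters tested, -0.22 over the other chromosome 18 promoters and -0.15 over promoters that are not CpG-rich. Medians were -0.16 for alpha, -0.082 for beta and -0.076 for gamma promoters. Of the members, 38.9% lay higher after tamoxifen, and 61.1% with TMM scaling, which sets the typical promoter to no change. At an unadjusted p under 0.05, 4 of 36 members were lower (11.1%) and 0 were higher, where 20.3% and 0.262% of all promoters were lower and higher. In 6 members all tamoxifen libraries lay below all untreated libraries and in 0 above, against 23.2% and 0.908% of all promoters. Among 5893 promoters outside the clusters that are not CpG-rich, 530 were lower and 41 higher at an unadjusted p under 0.05. In 719 of these, all tamoxifen libraries lay below, and in 132 above. The 4 members with an unadjusted p under 0.05 were all gamma promoters: Pcdhga4, Pcdhga5, Pcdhga11 and Pcdhgc3.

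Pcdhgc3 had 140, 157 and 135 calibrated reads in the untreated libraries of Kdm2a/b-JmjC and 90.8, 107 and 101 after tamoxifen. The groups did not overlap, and the means were 144 ± 11.5 and 99.8 ± 8.36 (SD, n = 3 each). The log2 fold change was -0.52 (SE 0.17, limma adjusted p = 0.0870), and it was -0.32 with TMM scaling. Leaving out each library in turn gave -0.58 to -0.46.

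Pcdhga11 (37755573 to 37755972), one of the last gamma A genes, had 62.1, 56.2 and 82.5 calibrated reads untreated and 43.8, 44.6 and 30.7 after tamoxifen in the same line, again with no overlap. For this promoter the limma fit gave -0.74 (log2 fold change, SE 0.24, adjusted p = 0.0885) and -0.53 with TMM scaling. It was the one member called in any setting: without tamoxifen replicate 1 it passed the thresholds, at a log2 fold change of -0.82 and a limma adjusted p of 0.0469. Without that library, 622 of all promoters were called in this line in place of 13. In Kdm2a/b-CXXC it had 73.1, 46.8, 51.5 and 84.2 calibrated reads untreated and 70.9, 39.9, 29.3 and 36.9 after tamoxifen. These groups overlapped, through tamoxifen replicate 1, and the log2 fold change was -0.56 (SE 0.23, limma adjusted p = 0.996). In Kdm2a-CXXC and Kdm2b-CXXC the values were 0.041 (SE 0.24) and 0.17 (SE 0.37), and the difference between lines was not tested.

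In Kdm2a/b-CXXC, the median log2 fold change of the 35 members tested was 0.15, against 0.087 over all promoters, 0.073 over other chromosome 18 promoters and 0.079 over those that are not CpG-rich. Of the 35, 74.3% lay higher after tamoxifen, and 62.9% with TMM scaling. Without tamoxifen replicate 1, the high library, the members' median was 0.076 and that of all promoters -0.022. At an unadjusted p under 0.05, 2 members were higher (Pcdhb1 and Pcdhga6) and 1 was lower (Pcdhga11), where 3.58% and 1.07% of all promoters were higher and lower. Only Pcdhga5 had all tamoxifen libraries above all untreated libraries, and 0 members had them below, against 1.8% and 0.597% of all promoters. Among 5133 promoters outside the clusters that are not CpG-rich, all tamoxifen libraries lay above in 130 and below in 59. Pcdhga6 (37707029 to 37707428) had 32.6, 34.9, 59.0 and 25.2 calibrated reads untreated and 73.2, 56.9, 57.7 and 31.3 after tamoxifen. Its groups overlapped, and the log2 fold change was 0.53 (SE 0.24, limma adjusted p = 0.996). Pcdhgc3 had 99.7 to 115 calibrated reads untreated, and 214, 125, 131 and 96.3 after tamoxifen, with the high value in tamoxifen replicate 1, the library that was high across all promoters. The fit gave 0.33 (log2 fold change, SE 0.19, limma adjusted p = 0.996), and 0.11 without that library.

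In Kdm2a-CXXC, the members' median log2 fold change was 0.036, against -0.18 over all promoters tested, -0.19 over other chromosome 18 promoters and -0.12 over promoters that are not CpG-rich. By cluster it was 0.23 over the beta, -0.067 over the gamma and -0.20 over the alpha promoters. Of the members, 52.8% lay higher after tamoxifen, and 77.8% with TMM scaling. Without tamoxifen replicate 1, the low library, the members' median was 0.098 and that of all promoters -0.075. At an unadjusted p under 0.05, 4 of 36 members were higher (11.1%) and 0 were lower, where 0.395% and 8% of all promoters were higher and lower. In 3 members, Pcdhb1, Pcdhb4 and Pcdhb18, all tamoxifen libraries lay above all untreated libraries and in 0 below, against 1.12% and 13.4% of all promoters. Among 6443 promoters outside the clusters that are not CpG-rich, 61 were higher and 356 lower at an unadjusted p under 0.05. In 173 of these, all tamoxifen libraries lay above, and in 577 below. The 4 members with an unadjusted p under 0.05 were Pcdhb1, Pcdhb16, Pcdhb18 and Pcdhga6, of which none passed adjustment over all promoters (limma, smallest adjusted p = 0.581).

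Pcdhb18 (37489265 to 37489664) had 8.60, 15.2 and 10.1 calibrated reads untreated and 22.7, 21.3 and 24.1 after tamoxifen in this line. The groups did not overlap, and the log2 fold change was 0.98 (SE 0.42, limma adjusted p = 0.581), with 0.82 to 1.19 when each library was left out in turn. Pcdhb16 (37477568 to 37477967) had 20.1, 36.5 and 13.2 untreated and 37.5, 47.4 and 29.2 after tamoxifen. Its groups overlapped through untreated replicate 2, and the log2 fold change was 0.78 (SE 0.32, limma adjusted p = 0.581), with 0.45 to 1.15 over the libraries left out. Both are beta promoters with few reads, so their errors were wide.

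Pcdhb1 had 27.7, 28.2 and 28.4 calibrated reads untreated and 41.0, 41.6 and 53.3 after tamoxifen in Kdm2a-CXXC, and the limma fit gave 0.66 (log2 fold change, SE 0.29, adjusted p = 0.581). In Kdm2a/b-CXXC it had 15.8, 29.9, 37.5 and 39.7 untreated and 55.2, 44.1, 46.0 and 30.5 after tamoxifen, and the fit gave 0.55 (log2 fold change, SE 0.26, limma adjusted p = 0.996). In Kdm2a/b-JmjC the values lay the other way, from 44.0, 40.8 and 52.2 to 36.3, 36.8 and 30.7, with no overlap and -0.39 in the fit (log2 fold change, SE 0.27, limma adjusted p = 0.390). With TMM scaling these 3 values were 0.84, 0.47 and -0.18, and in Kdm2b-CXXC the value was -0.021 (SE 0.37).

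**Figure D4:**
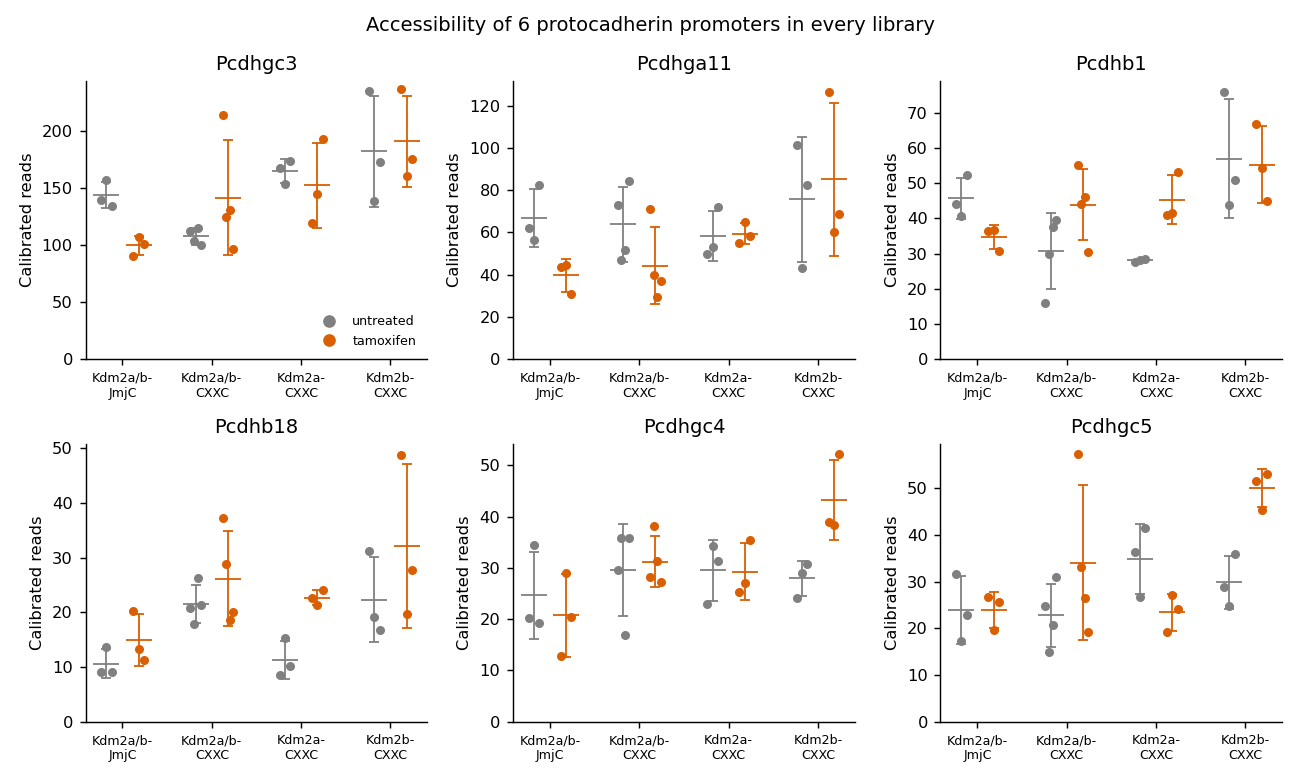
Calibrated reads of Pcdhgc3, Pcdhga11, Pcdhb1, Pcdhb18, Pcdhgc4 and Pcdhgc5 in every library of the 4 lines, untreated (grey) and after tamoxifen (orange); points are libraries, and the bar and whiskers are the mean and SD. The groups do not overlap for Pcdhgc3 and Pcdhga11 in Kdm2a/b-JmjC, for Pcdhb1 in Kdm2a/b-JmjC and Kdm2a-CXXC in opposite directions, for Pcdhb18 in Kdm2a-CXXC, and for Pcdhgc4 and Pcdhgc5 in Kdm2b-CXXC.

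In Kdm2b-CXXC, the members' median log2 fold change was 0.19, against 0.099 over all promoters tested, 0.084 over other chromosome 18 promoters and 0.12 over promoters that are not CpG-rich. Of the members, 80.6% lay higher after tamoxifen, and 63.9% with TMM scaling. This depended on the libraries kept. Leaving out tamoxifen replicate 1 took the members' median to -0.066 and that of all promoters to -0.11, and leaving out untreated replicate 2 took them to -0.0078 and -0.071. Untreated replicate 1 was also high across all promoters, and without it the median of all promoters was 0.30. By cluster, medians were 0.34 over the beta, 0.15 over the gamma and 0.035 over the alpha promoters. The median SE over members was 0.39 in this line, against 0.26 to 0.29 in the other lines. At an unadjusted p under 0.05, 0 members were higher or lower, where 0.519% and 0.151% of all promoters were. In 3 members (Pcdhb22, Pcdhgc4 and Pcdhgc5) all tamoxifen libraries lay above all untreated libraries and in 0 below, against 2.13% and 0.446% of all promoters. These 3 members are not CpG-rich. Among 6644 promoters outside the clusters that are not CpG-rich, all tamoxifen libraries lay above in 296 and below in 71. At an unadjusted p under 0.05 (limma), 88 of the 6644 were higher and 26 lower.

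Pcdhgc5 had 28.8, 24.8 and 36.0 calibrated reads untreated and 51.5, 45.3 and 53.1 after tamoxifen in Kdm2b-CXXC. Its log2 fold change was 0.74 (SE 0.40, limma adjusted p = 1.00), and 0.62 to 0.88 with each library left out in turn. Pcdhgc4 had 24.2, 29 and 30.7 untreated and 39.0, 38.4 and 52.2 after tamoxifen, or 0.60 in the fit (log2 fold change, SE 0.41, limma adjusted p = 1.00), and 0.46 to 0.68 over the libraries left out. Pcdhb22 (37518153 to 37518552), the last beta gene, had 33.4, 30.4 and 21.1 untreated and 64.1, 37.5 and 35.1 after tamoxifen, or 0.64 in the fit (log2 fold change, SE 0.41, limma adjusted p = 1.00). Without tamoxifen replicate 1, which held the highest of these values, it was 0.37. At the remaining gamma C-type promoter, Pcdhgc3, the groups overlapped: it had 182 ± 48.8 and 191 ± 40.3 calibrated reads in this line, untreated and after tamoxifen (SD, n = 3 each). In Kdm2a-CXXC, Pcdhgc5 lay lower after tamoxifen, at 19.2, 27.1 and 24.1 against 36.3, 26.6 and 41.5, with overlapping groups and -0.54 in the fit (log2 fold change, SE 0.32, limma adjusted p = 0.608).

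At the alpha C-type promoters no line gave a difference beyond the spread between libraries. Pcdhac1 (37089936 to 37090335) had 61.7 ± 6.34 and 61.6 ± 12.4 calibrated reads untreated and after tamoxifen in Kdm2a/b-JmjC (SD, n = 3 each), and log2 fold changes of -0.24 to 0.23 over the 4 lines. Pcdhac2 (37143769 to 37144168) had log2 fold changes of -0.29 to 0.047. The 95% confidence intervals of both promoters included 0 in every line, and they spanned -0.75 to 0.77. The untreated and tamoxifen libraries overlapped for both in all 4 lines. The lowest promoters gave the least precise values: the SE of Pcdhb5 was 0.48 to 0.62 and that of Pcdhga12 0.43 to 0.53.

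Compared as shares of promoter reads, which do not depend on the spike-in, the 16 beta promoters together held more reads after tamoxifen in the mean of each line. In Kdm2a-CXXC they held 168, 171 and 153 reads per M promoter reads untreated and 237, 210 and 207 after tamoxifen, with no overlap. In Kdm2b-CXXC they held 166, 196 and 185 untreated and 217, 200 and 214 after tamoxifen, also with no overlap. On the scale that sets the typical promoter to no change, the median beta promoter had a log2 fold change of 0.41 in Kdm2a-CXXC and 0.24 in Kdm2b-CXXC, where promoters outside the clusters that are not CpG-rich had 0.057 and 0.022. The corresponding values were 0.12 and 0.050 in Kdm2a/b-JmjC, and 0.12 and -0.0049 in Kdm2a/b-CXXC. In calibrated reads, the beta sums of Kdm2b-CXXC overlapped between untreated and tamoxifen libraries (408 ± 75.9 and 514 ± 158, SD, n = 3 each). The beta shares, in reads per M promoter reads, overlapped in Kdm2a/b-JmjC (202 ± 18.7 and 223 ± 11.7, SD, n = 3 each). These shares also overlapped in Kdm2a/b-CXXC (233 ± 26.9 and 248 ± 12.3, SD, n = 4 each). In calibrated reads, the beta sums of Kdm2a/b-JmjC lay lower after tamoxifen in the mean (370 ± 33.1 and 352 ± 13.3, SD, n = 3 each). Those of Kdm2a/b-CXXC lay higher (353 ± 51.7 and 402 ± 55.7, SD, n = 4 each), and both overlapped.

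The share of the 18 gamma promoters overlapped between untreated and tamoxifen libraries in every line. In Kdm2b-CXXC it was 555 ± 46.7 reads per M untreated and 567 ± 10.7 after tamoxifen, and in Kdm2a-CXXC it was 500 ± 39.8 and 561 ± 34.5 (SD, n = 3 each). The ratio of gamma to beta reads ranged from 2.07 to 3.33 over all libraries. It was lower in the tamoxifen mean of each line, and without overlap in Kdm2a-CXXC, at 3.04 ± 0.14 untreated and 2.58 ± 0.14 after tamoxifen (SD, n = 3 each). In calibrated reads, the sum over the gamma promoters in Kdm2a/b-JmjC was 954 ± 60.2 untreated and 834 ± 17.8 after tamoxifen (SD, n = 3 each), with no overlap, while the corresponding shares of promoter reads were 520 ± 17.1 and 529 ± 44.8 per M and overlapped.

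**Figure D5:**
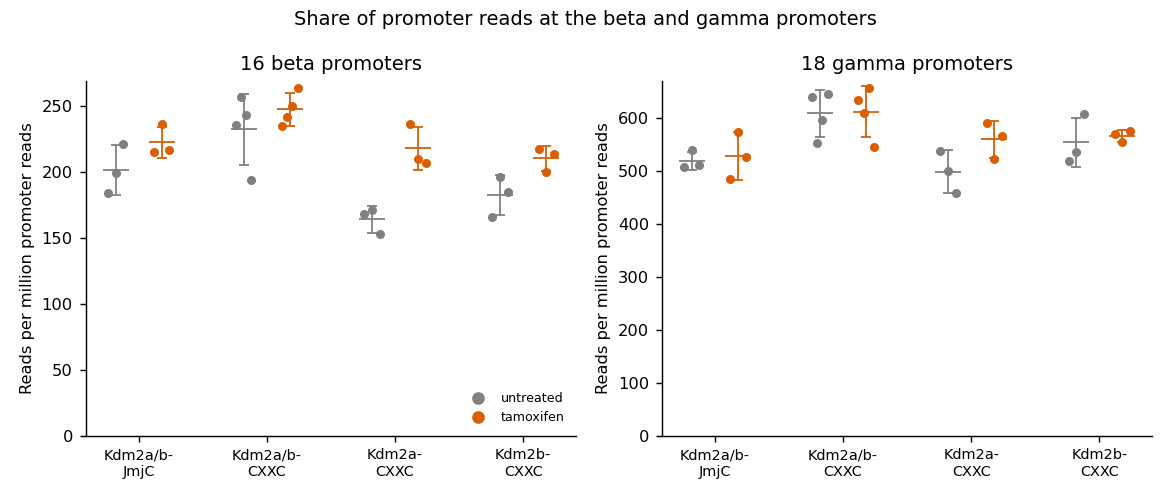
Reads in the 16 beta promoters (left) and the 18 gamma promoters (right) per M promoter reads in every library of the 4 lines, untreated (grey) and after tamoxifen (orange); points are libraries, and the bar and whiskers are the mean and SD. The beta groups do not overlap in Kdm2a-CXXC and Kdm2b-CXXC, and the gamma groups overlap in every line.

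On the calibrated scale, 7 promoters had a log2 fold change above 0 in all 4 lines (Pcdhb3, Pcdhb4, Pcdhb16, Pcdhb18, Pcdhga3, Pcdhgb1 and Pcdhga6), and 0 had one below 0 in all 4. These were 20% and 0% of the 35 members tested in every line, where 1.87% and 8.70% of the 16030 promoters tested in every line were higher and lower in all 4. With TMM scaling, the numbers were 10 and 0 (28.6% and 0%), against 7.87% and 9.30% of all promoters. No test was made of these shares. Of the 36 members 8 are CpG-rich, and promoters that are not CpG-rich differ from all promoters on the calibrated scale. Of those outside the clusters, 31.1% lay higher in Kdm2a/b-JmjC and 35.3% in Kdm2a-CXXC, against 16.6% and 18.8% of all promoters. The other lines went the other way, with 60.5% in Kdm2a/b-CXXC and 65.6% in Kdm2b-CXXC, against 68.0% and 71.1% of all promoters. The share of promoters that are not CpG-rich higher in all 4 lines was not counted. The log2 fold change of Pcdhb4 was 0.32 in Kdm2b-CXXC, 0.49 in Kdm2a-CXXC, 0.25 in Kdm2a/b-CXXC and 0.46 in Kdm2a/b-JmjC, and its 95% confidence interval included 0 in each. In the same order, the values of Pcdhb18 were 0.46, 0.98, 0.23 and 0.44.

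Promoters of genes known to act on the clusters, or to lie beside them, were read in the same fits. For 12 of 13 regulators of loops and DNA methylation with a promoter in the set, among them Ctcf, Rad21, Smc3, Smchd1 and Dnmt3b, 0 were called in any line. At an unadjusted p under 0.05, 1 was lower in Kdm2a/b-JmjC (Ctcf, log2 fold change -0.27) and 2 in Kdm2a-CXXC (Dnmt3b, -0.46, and Stag1, -0.36), where 20.3% and 8% of all promoters were lower. Of 11 genes beside or between the clusters, 0 were called. At an unadjusted p under 0.05, Diaph1 (-0.42) and Fchsd1 (-0.46) were lower in Kdm2a/b-JmjC and Dnd1 (-0.66) in Kdm2a-CXXC, which are 2 and 1 of 11, near the same shares of all promoters. Taf7, which lies between the beta and gamma clusters, stood at the 65.6th to 77.7th percentile of untreated promoters, and Slc25a2, beside it, at the 33.7th to 36.6th.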

How the data were processed

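ATAC and genomic DNA libraries were 26 each; the genomic DNA was not analysed here. The authors aligned 80 bp paired-end reads with Bowtie 2 to joined mm10 and dm6 genomes, and removed multi-mapping reads and PCR duplicates. The deposited library columns are a signal: reads per promoter divided by a spike-in size factor (0.718 to 1.41). The deposited log2 fold changes, standard errors and p-values of the authors' own DESeq2 comparisons were not used. Whole reads were recovered from the steps between values (100%, tolerance 0.05), with a median of 58 to 108 per promoter. PCR reads without molecular identifiers carry more than counting error.

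The main test was limma 3.58.1 (R 4.3.3) with a trend on log2(calibrated reads + 1), per line and two-sided, after edgeR 4.0.16 filterByExpr. The log2(value + 1) scale understates changes of low promoters. P-values were Benjamini-Hochberg adjusted over all promoters tested, and calls needed a fold change over 1.4 with an adjusted p under 0.05. Alternatives were TMM and median-of-ratios scaling, no filter, a pseudocount of 5, edgeR, DESeq2 1.42.0, a replicate block and leaving out each library. The labels call the replicates biological without naming separate cultures, so p-values measure the spread between these libraries.

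Identifiers were matched to RefSeq (99.1%) and GENCODE (114, of which 1 was a member, Pcdhgb8). Start codons came from RefSeq for 35 members and GENCODE for Pcdhgb8. Coordinates are 1-based. Named in every line were Pcdhac1, Pcdhac2, Pcdhb1, Pcdhgc3, Pcdhgc4 and Pcdhgc5, the highest and lowest promoter of each cluster, and per line the 2 with the smallest unadjusted p; others were named after their values were seen. Members and lists were chosen with earlier results of these data known.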

Additional observations from a re-analysis of the deposited data

Results flagged for a closer look

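Pcdhb1 lay lower in every tamoxifen library than in every untreated library of Kdm2a/b-JmjC (log2 fold change -0.39) and higher in every tamoxifen library of Kdm2a-CXXC (0.66). The difference between the lines was not tested. In Kdm2a/b-CXXC untreated cells, the summed calibrated reads of the gamma promoters were low in 1 of 4 libraries, with a gap to the next library of 0.902 of the whole range. It was the one case among 38 groups of 4 libraries examined in this way, where chance flags about 1 in 20.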

How the results depend on the processing

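The count of protocadherin promoters called was 0 in every line under every alternative, except without tamoxifen replicate 1 of Kdm2a/b-JmjC, where it was 1 (Pcdhga11); over the libraries left out it ranged from 0 to 1. Under TMM and median-of-ratios scaling the members' median log2 fold change was 0.13 and 0.13 in Kdm2a/b-JmjC, against -0.076 on the spike-in scale, and 0.21 and 0.22 in Kdm2a-CXXC, against 0.036. These scalings set the median over all promoters to between -0.0029 and 0.0017 in the 4 lines. In Kdm2a-CXXC the members' median was -0.0056 with edgeR and -0.0046 with DESeq2. With each library left out in turn it was -0.13 to -0.045, 0.076 to 0.21, -0.020 to 0.098 and -0.066 to 0.36 in Kdm2a/b-JmjC, Kdm2a/b-CXXC, Kdm2a-CXXC and the Kdm2b line. The cause of these shifts was not tested. Replicate numbers are shared between treatments. Across promoters, deviations of same-numbered libraries from their group means had correlations of -0.009 to 0.073, a measure that leaves out shifts of a whole library. Shifts of the median promoter ran in the same order by number in Kdm2b-CXXC (0.41, -0.34 and -0.064 untreated, 0.53, -0.16 and -0.055 after tamoxifen) and in Kdm2a-CXXC. In Kdm2a/b-JmjC and Kdm2a/b-CXXC the order differed. Whether same-numbered libraries belong together was not tested. The fit with a replicate block called 0 members and left the medians at -0.076, 0.15, 0.036 and 0.19. Across all promoters in Kdm2a/b-JmjC, 13 calls became 62 with the block, 113 with edgeR, 71 with a pseudocount of 5, 0 with no filter and 0 with TMM scaling. In the other lines, 0 became 5 in Kdm2b-CXXC and 188 in Kdm2a-CXXC with the block, and 17 with TMM scaling in Kdm2a/b-CXXC. Members at an unadjusted p under 0.05 in Kdm2b-CXXC went from 0 to 7 with the block. Over all promoters this count went from 120 to 1785 in that line and from 1488 to 3895 in Kdm2a-CXXC. It went from 3537 to 3544 in Kdm2a/b-JmjC and from 764 to 733 in Kdm2a/b-CXXC. With 1 library left out the calls over all promoters were 0 to 50 in Kdm2a-CXXC, 0 to 8 in Kdm2a/b-CXXC and 0 to 622 in Kdm2a/b-JmjC. With TMM scaling, 1 of 9, 1 of 9, 3 of 10 and 3 of 9 named promoters changed sign in the 4 lines, and with a library left out 3, 2, 5 and 5 of them did in at least 1 of the settings. Depth limits the beta promoters most, with a median of 25.2 reads per library.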

Other observations

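Of 12 non-clustered protocadherin genes, which lie outside the clusters and encode related adhesion proteins, 0 were called in any line, and their median log2 fold changes were 0.097 in Kdm2b-CXXC, -0.21 in Kdm2a-CXXC, 0.022 in Kdm2a/b-CXXC and -0.25 in Kdm2a/b-JmjC. Their levels differed between lines at 4 genes on chromosome 14. Pcdh17 had a mean of 587 calibrated reads in untreated Kdm2a-CXXC (99.8th percentile of all promoters), against 112 to 156 in the other lines. Pcdh8 had 257 against 100 to 152, Pcdh20 had 52.4 against 9.93 to 22.7, and Pcdh9 had 19.8 against 2.44 to 5.07.

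The other promoters of that region showed the same difference. Regions were set after seeing the data, and shifts are medians over promoters of the log2 difference in reads per M promoter reads (plus 1) from the median of the 4 untreated line means, for promoters above a mean of about 5 such reads. Over 37 promoters of chromosome 14 between 80 and 110 Mb the shift in Kdm2a-CXXC was 1.33 ± 0.054 untreated and 1.27 ± 0.017 after tamoxifen (SD, n = 3 each), and over 43 promoters from 110 Mb onwards it was -0.87 ± 0.080 and -1.01 ± 0.062. Over 455 promoters below 75 Mb it was -0.033 ± 0.012 and -0.017 ± 0.011. Over 101 promoters around the protocadherin clusters (chromosome 18, 30 to 40 Mb) the mean shift was between -0.0081 and 0.053 in every line and treatment. DNA copy number was not tested.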
